A study of Homo sapiens with 4 samples.

Results

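The 10 core genes of the circadian clock, ARNTL, CLOCK, NPAS2, PER1, PER2, PER3, CRY1, CRY2, NR1D1 and NR1D2, were followed in U87 cells that were given carnosine or left without it. They were found by symbol among 58219 genes of the count table, and all 10 had enough counts to be tested. The set was put together because clock genes lay higher with carnosine in these same data, so the changes below describe the members and are no independent evidence of a direction. The test called only some of the set. PER1, NR1D1 and NR1D2 were higher with carnosine, 2.20-fold, 1.94-fold and 1.47-fold, and the 7 other members did not pass the test. ARNTL and CLOCK, which drive the loop, had fold changes of 1.02 and 1.04.

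In the mammalian clock, ARNTL (also called BMAL1) pairs with CLOCK or its close relative NPAS2, and the pair binds E-box motifs to switch on PER, CRY and NR1D genes. PER and CRY proteins gather over hours, enter the nucleus and hold back the pair that made them, which closes the main loop. In a second loop the nuclear receptors NR1D1 and NR1D2, known as REV-ERB alpha and beta, repress ARNTL and NPAS2 through elements that the activating ROR receptors also bind. PER1 is in addition an acutely inducible gene that answers to cyclic AMP, serum and glucocorticoids. Such loops run in single cells of most tissues, astrocytes and cultured glioma cells among them, and fresh serum can set many cells of a dish to a common phase.

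U87 cells are a long-established line grown from a human glioblastoma. Carnosine joins beta-alanine to histidine. All cells grew in DMEM with 4.5 g/L glucose and no pyruvate, 10% serum and 2 mM GlutaMAX. They were plated for 24 h, then switched to new medium that held 50 mM carnosine (2 libraries) or none (2 libraries), and harvested 24 h later. Both groups therefore had the same change of medium, and there was 1 harvest time: a shift in the phase of a rhythm, in its amplitude and in its mean level cannot be told apart. Levels are given as CPM, the count of a gene relative to the scaled total of its library, and gene counts summed to between 51632970 and 71766267 per library. The labels do not say whether replicates came from separate cultures, so p values cover the spread of these samples alone, and that spread may be technical.

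The label of the cells was read against marker genes. VIM, of intermediate filaments, and CD44, a hyaluronan receptor, were abundant. VIM had 7420 and 7045 CPM in controls and 5583 and 5629 with carnosine, all lower, and CD44 had 1281 and 1107, then 1317 and 1522 CPM, all higher. NES, of neural precursors, had 23.7 to 44.02 CPM with overlapping groups, and the glial factor OLIG2 had 3.56 and 4.11, then 1.75 and 2.50 CPM. None of these 4 passed the test. The astrocyte markers S100B and AQP4 had no count in any library, SOX2 had 2 counts in all, both in carnosine replicate 1, and GFAP stayed at or below 0.278 CPM. The microglia markers AIF1 and P2RY12 and the endothelial markers CDH5 and CLDN5 had no count either. Others of these lists had few counts. CX3CR1 had 3, all in control replicate 1, and PTPRC had at most 8 in a library. VWF had 14 to 42 in a library and did not pass (adjusted p = 0.317, edgeR). The 5 microglia and leukocyte markers summed to 24.6 and 23.1 CPM in controls and 9.69 and 8.08 CPM with carnosine, nearly all of it CSF1R, the receptor of a macrophage growth factor (adjusted p = 0.00932, edgeR). The 4 endothelial markers summed to 2.28 and 2.90, then 6.77 and 5.54 CPM, most of it the adhesion gene PECAM1 (adjusted p = 0.0215, edgeR). The 5 neuron markers summed to 38.03 and 33.1, then 36.6 and 31.2 CPM. Within that sum SNAP25 had 18.04 and 14.6, then 11.5 and 9.02 CPM (adjusted p = 0.0625, edgeR). GAD1 had 10.4 and 7.77, then 13.8 and 11.7 CPM (adjusted p = 0.146, edgeR). SYT1 had 9.56 and 10.7, then 11.2 and 10.5 CPM, with overlapping groups. RBFOX3 had no count in any library, and SLC17A7 had at most 4 counts in a library. The sums of 4 oligodendrocyte markers were 0.258 CPM at most. The part of these markers in the results was not tested.

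The start regions of the genes that were higher are shown first, beside that of ARNTL, because the loops act through elements near transcript starts. RefSeq (GRCh38.p14) lists 15 windows for the 10 genes, each with 250 bases before and 50 after a transcript start, and ARNTL is named BMAL1 there. Capitals mark matches, on either strand, to an E-box (CACGTG), an E'-box (CACGTT), a D-box (TTATGTAA or TTACGTAA), a ROR element (TAGGTCA or TGGGTCA) or the core of the cyclic AMP response element (TGACGT). No match overlapped another. Windows of the minus strand are written in the direction of transcription.
PER1, chr17:8152355-8152654, minus strand: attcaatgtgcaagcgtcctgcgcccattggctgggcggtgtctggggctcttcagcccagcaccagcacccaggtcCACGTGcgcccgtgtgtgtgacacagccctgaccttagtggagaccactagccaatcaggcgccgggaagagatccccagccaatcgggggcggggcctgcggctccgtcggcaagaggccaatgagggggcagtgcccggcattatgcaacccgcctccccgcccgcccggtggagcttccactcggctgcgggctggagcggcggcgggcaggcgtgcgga
NR1D1, chr17:40100540-40100839, minus strand: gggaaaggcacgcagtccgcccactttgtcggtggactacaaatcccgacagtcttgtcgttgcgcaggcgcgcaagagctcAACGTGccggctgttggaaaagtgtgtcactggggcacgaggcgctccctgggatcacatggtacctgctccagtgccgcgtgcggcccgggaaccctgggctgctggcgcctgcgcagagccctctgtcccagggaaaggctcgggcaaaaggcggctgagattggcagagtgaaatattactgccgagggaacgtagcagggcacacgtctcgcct
NR1D2, the second start listed, chr3:23945871-23946170, plus strand: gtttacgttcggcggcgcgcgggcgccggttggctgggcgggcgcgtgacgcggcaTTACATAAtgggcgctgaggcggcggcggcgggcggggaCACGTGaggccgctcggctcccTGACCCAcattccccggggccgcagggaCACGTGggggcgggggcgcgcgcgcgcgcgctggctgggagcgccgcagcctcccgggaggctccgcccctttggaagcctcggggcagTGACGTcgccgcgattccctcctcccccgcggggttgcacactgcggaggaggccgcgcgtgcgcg
ARNTL, the first start listed, chr11:13277540-13277839, plus strand: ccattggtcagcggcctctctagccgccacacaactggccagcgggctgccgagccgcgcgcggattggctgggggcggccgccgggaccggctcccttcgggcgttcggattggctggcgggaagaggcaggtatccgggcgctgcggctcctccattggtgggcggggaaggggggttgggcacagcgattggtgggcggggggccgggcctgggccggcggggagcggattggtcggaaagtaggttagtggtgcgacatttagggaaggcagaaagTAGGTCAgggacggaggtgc

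The PER1 window held 1 E-box at bases -173 to -168 from the start. The window shown for NR1D2, that of its second listed start, held 2, at -155 to -150 and -105 to -100. The NR1D2 window also had a D-box, a ROR element and that core. NR1D1 had an E'-box at -168 to -163 and no other match. The ARNTL window had a ROR element, the kind of site that NR1D proteins bind, at bases 31 to 37 after the start and neither kind of E-box. Among members that did not pass the test, PER2 had an E'-box and a D-box, PER3 a D-box and CRY1 an E'-box. CRY2 and CLOCK each had an E'-box and a ROR element. No match was found in the first windows of NR1D2, CLOCK and CRY2, the second windows of ARNTL and PER3, or the NPAS2 window. Stretches of the PER and CRY genes are shown, since the same motifs stand in members on both sides of the test.
PER2, E'-box, chr2:238288786-238288823, minus strand: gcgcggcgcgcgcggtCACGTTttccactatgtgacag
PER2, D-box, chr2:238288590-238288629, minus strand: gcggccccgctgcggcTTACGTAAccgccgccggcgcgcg
PER3, D-box, chr1:7784098-7784137, plus strand: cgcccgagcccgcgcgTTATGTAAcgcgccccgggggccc
CRY1, E'-box, chr12:107093617-107093654, minus strand: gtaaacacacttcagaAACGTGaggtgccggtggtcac
CRY2, E'-box, chr11:45847271-45847308, plus strand: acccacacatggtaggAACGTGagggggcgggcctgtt
CRY2, ROR element, chr11:45847394-45847432, plus strand: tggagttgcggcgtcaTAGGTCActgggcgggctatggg

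Of the 15 windows, 2 held an E-box, against 7.26% of 35116 promoter windows of the same length. An E'-box was in 5 windows (5.34% of all), a D-box in 3 (1.01%), a ROR element in 4 (5.69%) and the cyclic AMP core in 1 (7.98%). E'-boxes stood in genes on both sides of the test (NR1D1, PER2, CRY1, CRY2 and CLOCK), and the E-box in PER1 and NR1D2. These matches describe the letters of the windows, not binding.

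**Figure D1:**
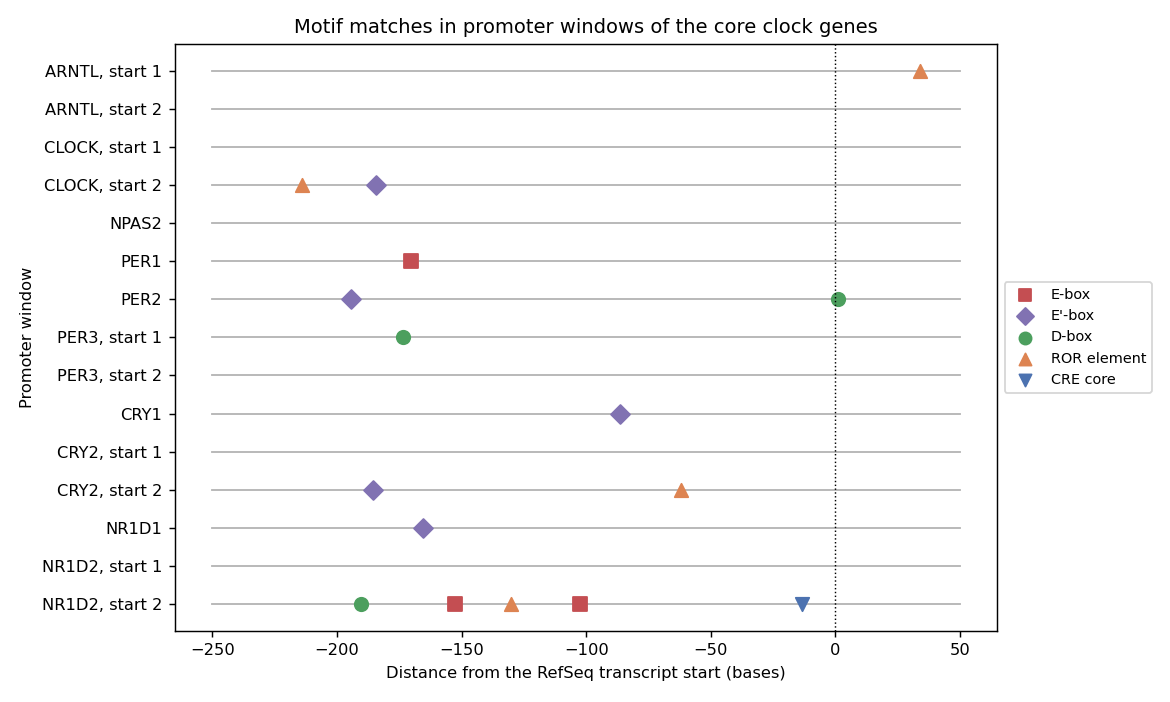
Motif matches in the 15 RefSeq promoter windows of the core clock genes; the horizontal axis is the distance in bases from the transcript start and each grey line is 1 window. E-boxes (red squares) stand in the windows of PER1 and the second start of NR1D2, and the ROR element of ARNTL (orange triangle) lies after the start.

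Higher calls were made for 3 of the 10 members and lower calls for 0, beside 3.95% and 4.36% of the 16340 genes tested, 8.31% in all. The threshold was an adjusted p under 0.05 in edgeR's quasi-likelihood test with Benjamini-Hochberg adjustment over all genes. Both carnosine libraries lay above both controls for 5 members, PER1, PER2, CRY2, NR1D1 and NR1D2, and for 27.8% of all genes tested. No member had both below, and groups were apart in either direction for 56.5% of genes. All 10 fitted changes were above 0, as were 8191 of the 16340, and their median log2 fold change was 0.19 against 0.00090 over all genes. That median was 0.0857 without control replicate 2, 0.107 without carnosine replicate 1, 0.31 without control replicate 1 and 0.35 without carnosine replicate 2. Since the members were picked from this contrast, nothing is read from these counts. When the test asked for a change beyond 1.5-fold, 0 members and 23 of all genes passed.

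**Figure D2:**
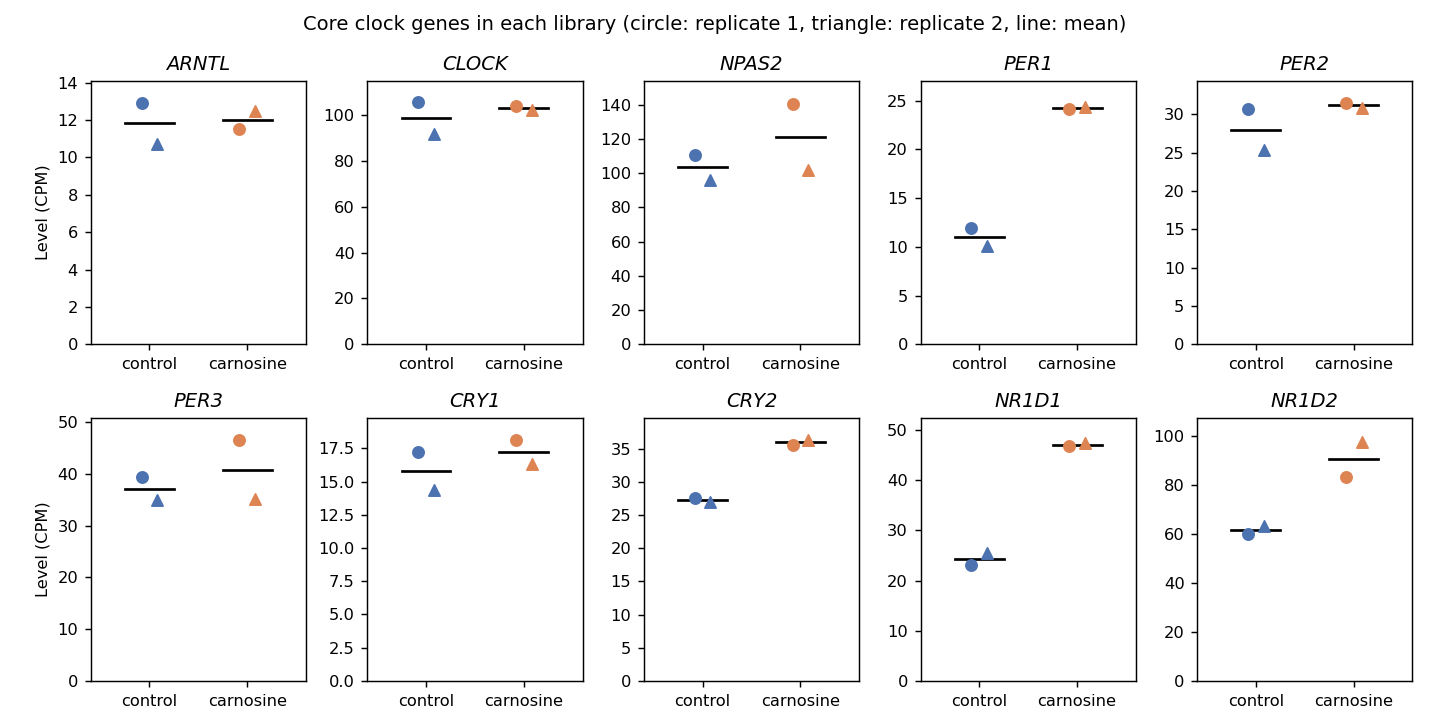
Level of each core clock gene in CPM (vertical axes, each from 0) in the 2 control and 2 carnosine libraries, with the mean as a line. PER1, PER2, NR1D1, NR1D2 and CRY2 show groups apart, PER2 narrowly, and the ARNTL, CLOCK, NPAS2, PER3 and CRY1 libraries overlap.

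Among the repressors of the second loop, NR1D1 (ENSG00000126368.5, chr17:40092787-40100725, minus strand) had 23.0 and 25.5 CPM in controls and 46.9 and 47.4 CPM with carnosine. The carnosine libraries were nearly equal and both stood well above the controls. The log2 fold change was 0.96 ± 0.10 (SE, n = 2 each; adjusted p = 0.0113, edgeR), which exceeded that of 94.1% of genes tested. More cells with the transcript and more transcript per cell cannot be told apart in such bulk libraries. NR1D1 shares 263 exonic bases, 9.49% of its own, with THRA, the thyroid hormone receptor alpha gene on the opposite strand, whose end runs into that of NR1D1. THRA had 41.6 and 43.1 CPM in controls and 55.1 and 57.9 CPM with carnosine, a log2 fold change of 0.42 ± 0.09 (adjusted p = 0.0428, edgeR). That call ended when any 1 of the 4 libraries was left out, with adjusted p from 0.0546 to 0.231. How the counting treated strand is not stated in what was used here, so the counts of this overlap are uncertain for both genes. The ratio of NR1D1 to THRA counts, which needs no scaling between libraries, was 0.554 and 0.591 in controls and 0.851 and 0.818 with carnosine.

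NR1D2 (ENSG00000174738.12, chr3:23945260-23980618, plus strand) had 59.8 and 63.2 CPM in controls and 83.4 and 97.6 CPM with carnosine. The groups did not overlap, and the carnosine libraries were spread more widely than the controls. Its log2 fold change was 0.56 ± 0.11 (SE, n = 2 each; adjusted p = 0.0325, edgeR). NR1D2 lost its call when 1 of 3 libraries was left out: the adjusted p was 0.132 without control replicate 1, 0.0946 without control replicate 2 and 0.0521 without carnosine replicate 2, with log2 fold changes of 0.51, 0.59 and 0.44. NR1D1 made up 44.7% and 45.9% of the summed level of both receptors per kilobase of exon in the controls, and 54.1% and 50.5% with carnosine. With the same counts divided by the exon lengths of basic transcripts, its share was 42.2% and 43.4%, then 51.6% and 47.9%.

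Among the PER genes, which encode the partners of CRY in the repressing complex, PER1 alone passed. PER1 (ENSG00000179094.15, chr17:8140472-8156506, minus strand) had 11.9 and 10.1 CPM in controls and 24.1 and 24.3 CPM with carnosine. Each carnosine library was more than double each control. The log2 fold change of 1.14 ± 0.13 (SE, n = 2 each; adjusted p = 0.0113, edgeR) exceeded that of 95.7% of genes tested and was the largest of the 10 members. With 1 library left out it stayed between 1.02 and 1.26 and remained called, as did NR1D1 between 0.88 and 1.03.

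PER2 (ENSG00000132326.11, chr2:238244038-238290102, minus strand) had 30.7 and 25.3 CPM in controls and 31.5 and 30.8 CPM with carnosine. Control replicate 1 was almost level with both carnosine libraries, and control replicate 2 was lower. Its log2 fold change was 0.15 with a 95% interval from -0.14 to 0.45 (adjusted p = 0.474, edgeR). PER3 (ENSG00000049246.14, chr1:7784320-7845177, plus strand), the PER gene least needed for the rhythm in mice, had 39.4 and 34.9 CPM in controls and 46.5 and 35.2 CPM with carnosine. Carnosine replicate 1 was the high library, and the other carnosine library lay between the controls. Its log2 fold change was 0.14, from -0.22 to 0.49 (adjusted p = 0.610, edgeR).

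PER1 took a larger share of the PER transcripts in both carnosine libraries. It had 0.389 and 0.399 counts for each PER2 count in controls and 0.766 and 0.788 with carnosine. Against PER3 the ratio was 0.303 and 0.289 in controls, then 0.518 and 0.691. Per kilobase of exon, PER1 was 15.4% and 15.3% of the summed PER level in controls and 25.02% and 28.2% with carnosine. PER2 went from 40.4% and 39.0% to 33.3% and 36.5%, and PER3 from 44.1% and 45.7% to 41.7% and 35.3%. The libraries of the groups were apart for each of these shares, and in CPM they were apart for 56.5% of genes tested. Because the shares add up to the whole PER level, the lower shares of PER2 and PER3 repeat the PER1 change. Their own fitted changes were above 0. With the same counts divided by the exon lengths of basic transcripts, PER1 had 16.7% and 16.5%, then 26.7% and 30.3%. An exact two-sided permutation test of 2 against 2 libraries cannot go below p = 0.333, and the shares and ratios are given as values.

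**Figure D3:**
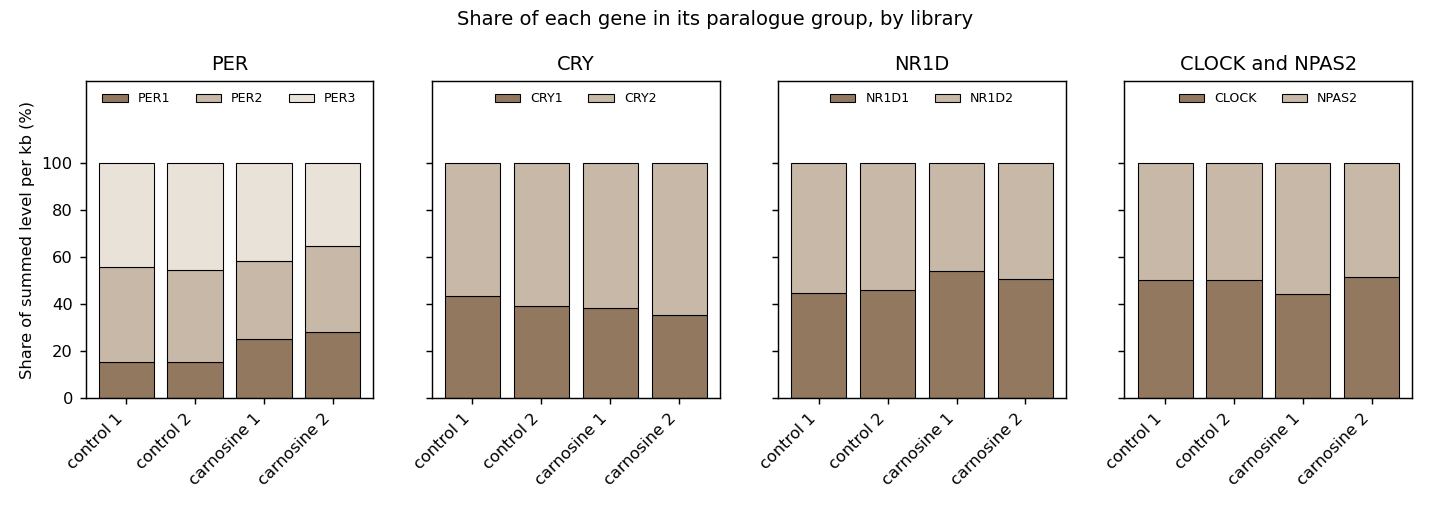
Share of each gene (%) in the summed level per kilobase of exon of its paralogue group, by library, as bars from 0 to 100. The PER1 share is 15.4% and 15.3% in controls and 25.02% and 28.2% with carnosine, while CLOCK and NPAS2 split about evenly in 3 libraries and NPAS2 leads in carnosine replicate 1. That split depends on the exon length used. NPAS2 has 73.8% to 79.2% when the same counts are divided by the exon lengths of basic transcripts.

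The CRY genes encode the flavoprotein relatives of photolyases that block the ARNTL pair directly. CRY2 (ENSG00000121671.11, chr11:45847118-45883248, plus strand) had 27.6 and 27.0 CPM in controls and 35.6 and 36.3 CPM with carnosine. Replicates lay close together and the groups were apart. Its log2 fold change of 0.40 ± 0.10 (95% interval from 0.16 to 0.63) fell just outside the threshold (adjusted p = 0.0545, edgeR), where NR1D2 was the called member nearest to it. DESeq2 called CRY2 (adjusted p = 0.0252), as did edgeR with upper-quartile scaling (0.0493) or with no filter on low counts (0.0295). RLE scaling (0.0517), total counts (0.0573), a mean count of at least 10 (0.0531), limma-voom (0.0569) and each fit with 1 library left out (0.0956 to 0.289) did not. CRY1 (ENSG00000008405.11, chr12:106991364-107093829, minus strand), the stronger repressor of this pair, had 17.2 and 14.3 CPM in controls and 18.1 and 16.3 CPM with carnosine. Its groups overlapped, with a log2 fold change of 0.13 and an interval from -0.20 to 0.46 (adjusted p = 0.616, edgeR). There were 1.604 and 1.88 CRY2 counts per CRY1 count in controls and 1.97 and 2.23 with carnosine.

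The activators did not pass. ARNTL (ENSG00000133794.17, chr11:13276652-13387266, plus strand) had 12.9 and 10.7 CPM in controls and 11.5 and 12.5 CPM with carnosine, so both carnosine libraries lay between the controls. Its log2 fold change was 0.02 with a 95% interval from -0.33 to 0.37 (adjusted p = 0.943, edgeR). CLOCK (ENSG00000134852.14, chr4:55427903-55547138, minus strand), the histone acetyltransferase partner, had 105.6 and 91.8 CPM in controls and 104.1 and 102.1 CPM with carnosine, also between the controls. Its log2 fold change was 0.06, from -0.19 to 0.32 (adjusted p = 0.757, edgeR). NPAS2 (ENSG00000170485.16, chr2:100820152-100996829, plus strand), which can stand in for CLOCK, had 110.8 and 96.1 CPM in controls and 140.3 and 101.8 CPM with carnosine. Carnosine replicate 1 was high and replicate 2 lay between the controls, for a log2 fold change of 0.23 from -0.16 to 0.62 (adjusted p = 0.429, edgeR). NPAS2 and PER3 thus had the same high library and the widest spread between carnosine replicates, 22.5% and 19.6% of the mean. Replicate 1 was also above replicate 2 in the controls of both genes.

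**Figure D4:**
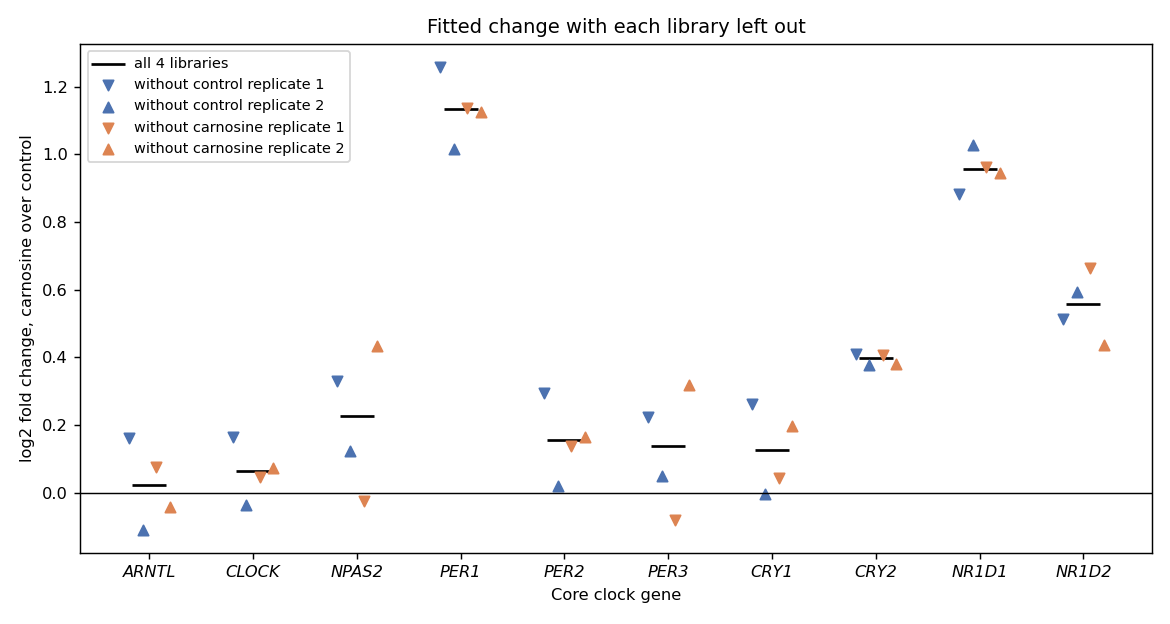
Fitted log2 fold change (vertical axis) of each core clock gene with all 4 libraries (line) and with each library left out (triangles). PER1 and NR1D1 keep values of 0.88 or more, and ARNTL, CLOCK, NPAS2, PER3 and CRY1 cross 0 when 1 library is left out.

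Ratios of a repressor to ARNTL counts set both arms of the loop side by side without scaling. PER1 had 0.922 and 0.941 counts per ARNTL count in controls and 2.09 and 1.94 with carnosine. NR1D1 had 1.78 and 2.38, then 4.06 and 3.79, and NR1D2 had 4.62 and 5.89, then 7.23 and 7.80. For CRY2 the values were 2.14 and 2.52, then 3.09 and 2.90. In each of these 4 ratios both carnosine libraries stood above both controls. They repeat the changes already given, since ARNTL itself was about level.

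Counting error was small beside these differences: the lowest member count was 592, for PER1 in control replicate 2, which has a counting error of 4.11%. Control replicates of PER1 differed with an SD of 11.8% of their mean, so for this gene the spread between control libraries was wider than counting error. Among controls of the members only CRY2 had a narrower spread, 1.61%, than the counting error at its lowest count, 2.51%. Carnosine libraries of PER1 and NR1D1 lay closer together, with an SD of 0.57% and 0.76% of the mean. Counting error leaves out other sources of variation.

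Levels were compared between genes per kilobase of exon, using all exons that GENCODE 29 lists for a gene. In controls NR1D2 was highest, at 10.6 ± 0.41 CPM per kilobase (SD, n = 2), followed by NR1D1 at 8.75 ± 0.63, CLOCK at 8.39 ± 0.83 and NPAS2 at 8.28 ± 0.84. NR1D1, CLOCK and NPAS2 did not differ from each other beyond their spread. PER3 (4.59 ± 0.39), CRY2 (4.41 ± 0.07) and PER2 (4.07 ± 0.55) formed a middle group within their spread, and CRY1 was at 3.12 ± 0.40. ARNTL (1.76 ± 0.23) and PER1 (1.57 ± 0.19) were lowest and not apart. With carnosine NR1D1 stood first, at 17.0 ± 0.13 CPM per kilobase, NR1D2 second at 15.5 ± 1.72, which is within the spread of NR1D2. PER1 went from the tenth place to the eighth, at 3.46 ± 0.02, level with CRY1 at 3.40 ± 0.26, and ARNTL was then last at 1.79 ± 0.10. The order depends on the exon length by which the same counts are divided. For NPAS2 that length was 12491 bases with all exons and 4007 with those of GENCODE's basic transcripts. On the basic lengths NPAS2 was first in both groups, at 25.8 and 30.2 CPM per kilobase. ARNTL was then at 3.91 ± 0.52 in controls, above PER1 at 2.02 ± 0.24 by more than their spread. With carnosine, NR1D1 was the third and PER1 the ninth on those lengths.

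Further members overlap exons of opposite-strand genes. The largest overlaps were 868 bases of PER3 with UTS2, the urotensin 2 gene, which had 13 to 24 counts in a library, and 748 bases of NPAS2 with the noncoding AC016738.1, of 8 to 24 counts. CLOCK shares 76 bases with TMEM165, a Golgi protein gene, which had 3985 to 4610 counts and did not pass (log2 fold change 0.21, adjusted p = 0.246, edgeR). AC024243.1 (27 bases of CLOCK) and AC016738.2 (35 of NPAS2) had 2 to 33 and 6 to 14 counts. AC012485.1 (188 bases of PER2), Z98884.1 (482 of PER3) and AC078929.1 (94 of CRY1) had at most 1 count in a library. Member counts ran from 592 to 8435.

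Among 10 further factors of the loops, 2 rose, 1 fell and 7 did not pass, with a median log2 fold change of 0.26, and 0.14 without carnosine replicate 2 or 0.16 without control replicate 1. These and the lists that follow are counts beside the shares of all genes given above, with no test of a list. BHLHE40, or DEC1, a repressor that competes for E-boxes, had 91.1 and 90.1 CPM in controls and 130.1 and 163.6 CPM with carnosine, a log2 fold change of 0.70 ± 0.13 (SE, n = 2 each; adjusted p = 0.0283, edgeR). RORA, the receptor that opposes NR1D proteins at shared elements, rose by 0.60 ± 0.14 (adjusted p = 0.0485, edgeR), from 21.4 and 18.2 to 27.2 and 32.8 CPM. Its relative RORB had 5.41 and 5.20, then 6.55 and 8.20 CPM, and did not pass (adjusted p = 0.145, edgeR). TIPIN, a partner of TIMELESS that also guards replication forks, fell by 0.89 ± 0.11 (adjusted p = 0.0125, edgeR), from 23.6 and 23.5 to 12.9 and 12.6 CPM. TIMELESS itself, at -0.38, did not pass (adjusted p = 0.103, edgeR), and CIART, a repressor of the ARNTL pair with overlapping libraries, had 0.30 (adjusted p = 0.314, edgeR). RORA lost its call in limma-voom (adjusted p = 0.0521) and when control replicate 1 (0.0630), control replicate 2 (0.210) or carnosine replicate 2 (0.0899) was left out. That of BHLHE40 ended without control replicate 1 (0.0679) or 2 (0.0826).

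Of 12 genes that the clock drives, 10 could be tested, 3 rose, 0 fell and 7 did not pass, with a median of 0.32. Without carnosine replicate 2 the median was 0.62. With no filter on low counts all 12 were tested, with 4 higher calls and 1 lower. An unadjusted p under 0.05 was found for 9 of the 10, and for 4473 of all 16340 genes. TEF, a D-box activator of the PAR bZIP family, rose by 0.72 ± 0.10 (SE, n = 2 each; adjusted p = 0.0156, edgeR), from 27.3 and 26.5 to 43.2 and 45.2 CPM. Its family members DBP, with 2.12 and 2.57, then 3.61 and 3.63 CPM, and HLF, with 8.30 and 6.78, then 12.1 and 11.02 CPM, had groups apart and did not pass (adjusted p = 0.124 and 0.0617, edgeR). PPARA, a nuclear receptor of fatty acid use, rose by 1.04 ± 0.10 (adjusted p = 0.00855, edgeR). KLF9, a zinc finger factor also induced by glucocorticoids, rose by 1.54 ± 0.29 (adjusted p = 0.0301, edgeR), from 3.18 and 4.55 to 8.30 and 14.1 CPM. NAMPT, the enzyme of NAD salvage, and the kinase WEE1 lay below the controls in both carnosine libraries and did not pass, at log2 fold changes of -0.52 and -0.27. NFIL3, the D-box repressor, had 0.03. The list thus held values on both sides of 0, with 6 of 10 above it.

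**Figure D5:**
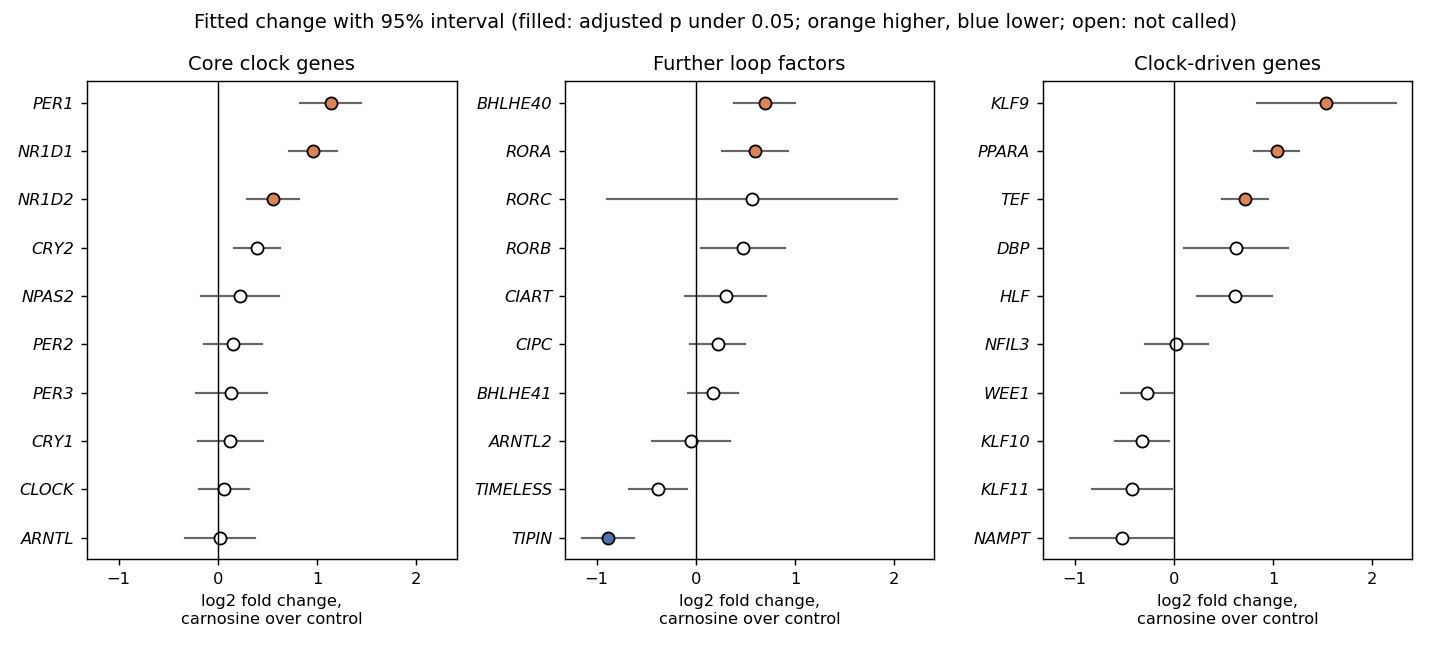
Fitted log2 fold change of carnosine over control (horizontal axis) with 95% intervals for core clock genes, further loop factors and clock-driven genes; filled points passed the test. PER1, NR1D1, NR1D2, BHLHE40, RORA, KLF9, PPARA and TEF are filled on the higher side and TIPIN on the lower side.

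Genes listed for the turnover of clock proteins showed no call. Of 21 tested, kinases, phosphatases and ubiquitin ligases among them, edgeR called 0. An unadjusted p under 0.05 was found for 3, a smaller share than the 4473 of all 16340 genes. DESeq2 called 2, beside 2211 of all 16340 genes, limma-voom called 0, and the median was 0.02. The ubiquitin ligase HUWE1 and the ligase subunit DDB1, which had the most counts of the list, were at -0.06 and 0.03 on the log2 scale. BTRC (0.39, adjusted p = 0.0578, edgeR) and GSK3B (0.44, adjusted p = 0.0642, edgeR) had groups apart, higher with carnosine, and did not pass. Of 22 coregulators edgeR called 0, DESeq2 2 and limma-voom 0, with a median of -0.06. An unadjusted p under 0.05 was found for 6, about the share of all genes. DDX5 and NONO, RNA-binding partners of PER complexes with the most counts there, had 0.15 and -0.17. TBL1XR1 (0.45, adjusted p = 0.0590, edgeR), WDR5 and HDAC3 (both -0.34, adjusted p = 0.0726, edgeR) had groups apart and did not pass. Both carnosine libraries lay above both controls for 7 of the 21 and 4 of the 22, and below for 4 and 7. Over all genes tested these shares were 27.8% above and 28.8% below.

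Among 16 carriers of signals to PER genes, NR3C1, the glucocorticoid receptor, was the 1 call, higher by 0.51 ± 0.11 (SE, n = 2 each; adjusted p = 0.0416, edgeR), and the median was 0.05. Its adjusted p was 0.206 and 0.162 without control replicate 1 and 2, and 0.0721 without carnosine replicate 2, so the call was lost in each. Of 8 glucocorticoid-induced genes tested, TSC22D3, or GILZ, rose by 1.37 ± 0.12 (adjusted p = 0.00855, edgeR), from 9.13 and 10.1 to 23.7 and 25.7 CPM, and KLF9 is the other call. No gene of this list was called lower in the main fit, but DESeq2 had 2 higher and 1 lower call. With no filter on low counts there were 5 higher and 2 lower calls, beside 3145 calls among 26103 genes. The median was 0.39, and from 0.12 without carnosine replicate 2 to 0.61 without carnosine replicate 1. FKBP5, a common marker of that receptor, had 12.9 and 10.1, then 8.26 and 7.33 CPM, in the opposite direction and not past the test (adjusted p = 0.0910, edgeR). MT2A of the same list had 483 and 610, then 268 and 379 CPM, also lower and not past the test (adjusted p = 0.0593, edgeR). Fitted changes were above 0 for 6 of the 8. Of 8 immediate early genes, the nuclear receptor NR4A3 rose by 1.30 ± 0.27 (adjusted p = 0.0346, edgeR), a call that ended without control replicate 2 (0.0739) or carnosine replicate 2 (0.0586). Its relative NR4A2 (log2 fold change 1.23, adjusted p = 0.0760, edgeR) and FOSB (1.15, adjusted p = 0.174, edgeR) had groups apart, higher with carnosine, and did not pass. Both had few counts, 27 to 64 in a library for NR4A2 and 15 to 39 for FOSB. FOS, EGR1, NR4A1, JUNB and IER2 had overlapping groups, with log2 fold changes from -0.25 to 0.23. The list's median was 0.19, and from 0.0077 without control replicate 2 to 0.39 without carnosine replicate 1.

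Of 12 markers of cycling cells, 0 rose, 6 fell and 6 did not pass, with a median of -0.51 on the log2 scale. Those that fell were PCNA and 5 MCM genes, all of DNA replication, and the 4 with the smallest p were MCM7 (-0.72), MCM2 (-0.63), PCNA (-0.57) and MCM3 (-0.55). MKI67 (-0.52, adjusted p = 0.204, edgeR), TOP2A, CCNA2, CCNB1 and BUB1 (0.0061, adjusted p = 0.981, edgeR), which mark dividing cells, had overlapping groups and did not pass, nor did MCM4. Summed over the 12 genes, levels were 4806 and 4150 CPM in controls and 3280 and 3462 CPM with carnosine. Without control replicate 1 no marker was called, and without control replicate 2 there was 1. Their part in the levels of clock genes was not tested.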

How the data were processed

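Per the labels' protocols, U87 RNA was freed of ribosomal RNA, made into stranded libraries and read as pairs of 101 bases. The authors deposited raw counts per gene. The tools were HTSeq 0.6.1, HISAT2 2.1.0 and bcl2fastq 2.17.0, on build hg38, per the submitters' processing notes. Not given in the sources used here are the strand setting, the annotation release and the treatment of reads with several matches, which bears on overlapping genes. Columns were matched to samples by title, with 0 columns of other samples.

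Genes were kept by edgeR's filterByExpr (a count of 10, a total of 15), which left 16340 of 58219. Libraries were scaled by TMM. The two-sided quasi-likelihood test of edgeR 4.0.16 (R 4.3.3) had group as its only term and 2 residual degrees of freedom. Its p values were adjusted by Benjamini-Hochberg across the 16340 genes. SE is the fold change over the root of F. Replicates were no copies of a library, with a chi-square of 33.8 and 53.0 times its degrees of freedom. DESeq2 1.42.0, limma 3.58.1 (voom), other scalings and filters, a test against a fold of 1.5, a replicate block and leaving out each library were alternatives. The fit was tested on simulated data, where false calls were a larger share of all calls than the nominal rate in edgeR, DESeq2 and limma-voom alike.

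Members and lists were chosen with earlier results of these data known. Named were all members, genes overlapping them on the opposite strand, and from each list up to 4 calls (all calls of further loop factors) or the 2 members with the most counts where none passed. Other list members and cell markers were named after their values were seen. Coordinates and exons are from GENCODE 29 (GRCh38), where all 10 identifiers matched with their version, and promoter windows from RefSeq (GRCh38.p14), by symbol or synonym.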

Additional observations from a re-analysis of the deposited data

How the results depend on the processing

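Of 16340 genes tested, 1358 were called. The count was 3145 with no filter on low counts, 2211 in DESeq2, 23 in the test against a fold of 1.5, and from 505 (without control replicate 2) to 1595 (without carnosine replicate 2) with 1 library left out. Of the 10 clock genes, 3 were called, 2 or 3 with 1 library left out and 0 against a fold of 1.5, where PER1 had an adjusted p of 0.0974 and NR1D1 of 0.122. With the replicate block 5767 genes and 5 clock genes were called, CRY2 and NPAS2 added. It also called 5 of the 21 turnover genes and 9 of the 22 coregulators. The labels do not say that a number pairs samples, and deviations of same-numbered libraries correlated with r = 0.31 across genes. Total counts only, RLE, upper-quartile scaling, a mean count of at least 10 and limma-voom gave 3 or 4 clock genes. With 1 library left out the log2 fold change ranged from -0.11 to 0.16 for ARNTL, -0.038 to 0.16 for CLOCK, -0.026 to 0.43 for NPAS2, -0.081 to 0.32 for PER3 and -0.0042 to 0.26 for CRY1. It ranged from -0.26 to 0.10 for HUWE1, -0.081 to 0.12 for DDB1, -0.21 to 0.93 for UTS2, and -3.18 to 1.07 and -1.15 to 0.70 for the noncoding genes ENSG00000272969 and ENSG00000223947 that overlap CLOCK and NPAS2. The cause of these changes was not tested. Leaving out a library leaves 1 residual degree of freedom.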
